A study of Mus musculus with 6 samples.

Results

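DNA repair genes were examined by pathway in long-term hematopoietic stem cells (LT-HSCs), the rare marrow cells from which blood is renewed throughout life, from mice lacking latexin and from WT mice. Latexin (Lxn) is an inhibitor of metallocarboxypeptidases. The genes were taken from a list of 31 repair genes by their symbol in the platform annotation, and each was represented by its brightest probe set over all 6 arrays. Of the 31, 30 were measured, out of 19938 genes on the array with their own symbol, and Xrcc2 was not analysed here. The Lxn-/- mice carried a deletion of exons 2 to 4 of Lxn and lacked the protein, and the WT mice had an intact gene. All were female C57BL/6 mice aged 8 to 12 weeks, and no treatment is named. Each genotype was represented by 3 pools of about 100000 sorted cells from 10 to 20 mice, each hybridised to 1 Affymetrix mouse Gene ST array, so a p-value measures the spread between pools. The labels name no driver that would restrict the deletion to a tissue.

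Cells repair DNA by several routes that differ in the lesion they mend and in the phase of the cell cycle in which they work. Broken ends can be copied back from the sister chromatid by homologous recombination, which needs a replicated template, or ligated directly by non-homologous end joining, which does not. The Fanconi anemia pathway unhooks crosslinks between strands, mismatch repair corrects replication errors, and the excision pathways replace damaged bases or bulky lesions. Resting hematopoietic stem cells are known to rely largely on end joining, and loss of Fanconi or end joining genes is known to exhaust them in mice.

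No DNA repair gene passed the test between Lxn-/- and WT cells. The differences of the 30 genes, Lxn-/- minus WT on the log2 scale, ran from -0.29 for Lig4 to 0.14 for Prkdc, both genes of end joining. The median over the 30 genes was -0.011, with 14 (46.7%) higher and 16 lower in Lxn-/-, beside a median of -0.013 over all genes, of which 44% were higher. With each array shifted to a common median, 7 (23.3%) were higher and 23 lower, beside 25.6% higher among all genes. The lowest adjusted p of the 30 genes was 0.993 in limma with Benjamini-Hochberg adjustment over 23410 probe sets, and 0 passed a threshold of 0.05, as did 0% of all genes. At an unadjusted p under 0.05 there was 1 of the 30, Lig4, against 3.76% of all genes, or 2.47% in its direction, lower in Lxn-/-. For 4 of the 30 (13.3%) all values of 1 genotype lay above all values of the other, against 8.79% of all genes. Lig4, Ercc1 and Rad52 were lower in Lxn-/-, where 5.49% of all genes were without overlap in that direction. Ercc2 was higher, where 3.3% were.

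The confidence intervals give the precision of the differences in array signal, and they do not bound the change in transcript number. The 95% confidence interval reached a median of 0.20 to either side of the difference for the repair genes and 0.19 for all genes. For 28 of the 30 genes the whole interval lay within 0.5 log2 units of 0. The exceptions were Lig4, with a lower bound of -0.52, and Xrcc3, with an interval of -0.64 to 0.35. All 30 had mean values above 6.93, the 95th percentile of probe sets for odorant and pheromone receptors, which served as a scale for dim signal. Of all 19938 genes, 14040 were above it.

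**Figure D1:**
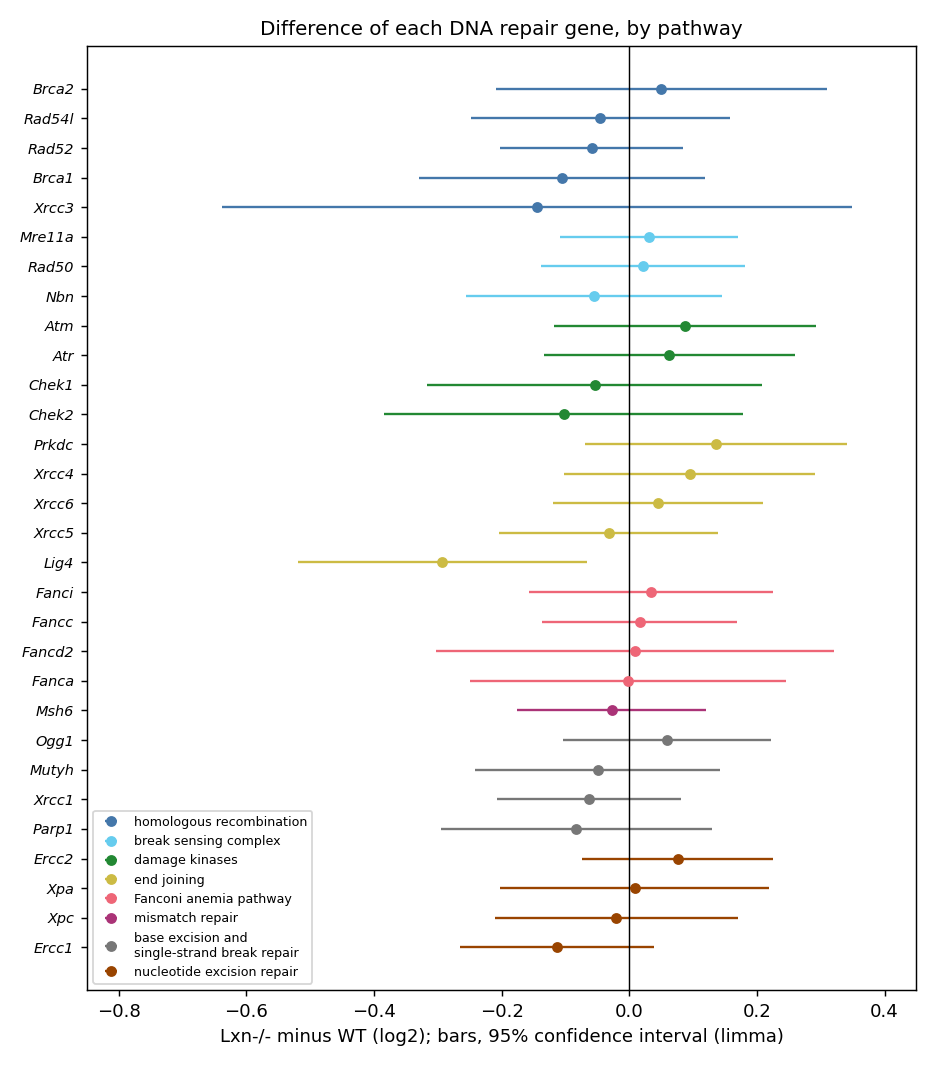
Difference of the 30 measured repair genes, Lxn-/- minus WT in log2 units on the x axis, grouped by pathway, with limma's 95% confidence intervals from 3 arrays per genotype. The intervals of 29 genes include 0, and that of Lig4 runs from -0.52 to -0.067.

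The labels and the pools were checked before the pathways were compared. The signal of Lxn was 8.66, 8.78 and 8.78 in the Lxn-/- pools, against 8.99, 9.09 and 9.55 in the WT pools, a difference of -0.47 (SE 0.14, unadjusted p = 0.0101 and adjusted p = 0.993 in limma), or -0.30 without WT replicate 3. Lxn itself thus did not pass the test, and its signal in the Lxn-/- pools was above 6.93. The sources used here do not place the probes relative to the deleted exons, and a probe outside them is no check. Of 12 markers of the stem cell gate, 10 were measured, and all 10 were above the dim scale, Kit, Procr, Slamf1 and Hlf among them. Transcripts of Cd34 and Flt3, for whose proteins such cells are sorted as negative (the labels write Flt2), averaged 13.18 and 11.99 in Lxn-/- and 13.12 and 11.93 in WT. Measured markers of B cells were also above that scale for 11 of 11, of erythroid cells for 9 of 9 and of neutrophils for 12 of 12. Those of monocytes and macrophages were above it for 6 of 6, and those of T cells for 5 of 6. Because 14040 of all 19938 genes were above it, passing that scale does not show which cells were present. WT replicate 3 lay apart from the rest on the first principal component, with a score of 23.3 against -12.6 to 7.97 for the other 5 pools. In RNA of pooled cells, fewer cells of a type and less RNA per cell cannot be told apart.

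Among the 30 measured repair genes, end joining held both the lowest and the highest difference. The 99 further repair genes measured ran from -0.25 to 0.23, and the highest of them was Rad51b, a recombination gene. Lig4 encodes the ligase that seals the ends. Its values were 7.99, 8.32 and 8.05 in Lxn-/- replicates 1, 2 and 3, against 8.43, 8.32 and 8.49 in WT replicates 1, 2 and 3. The groups were separated only narrowly, because Lxn-/- replicate 2 was almost level with WT replicate 2, while the other Lxn-/- pools were well below every WT pool. The signal was thus lower by 1.23-fold, a log2 difference of -0.29 with an SE of 0.098. In limma the unadjusted p was 0.0175, which ranked 215 among 19938 genes, and the adjusted p was 0.993. The exact two-sided permutation p was 0.1, the smallest that 3 arrays against 3 can give. Leaving out single pools moved the difference between -0.39 and -0.23, and the unadjusted p was 0.0545 without WT replicate 3, 0.0666 without Lxn-/- replicate 1 and 0.0555 without Lxn-/- replicate 3. In developing lymphocytes Lig4 also joins the ends made during assembly of antigen receptor genes. Markers of B cells were lower in Lxn-/- for all 11 measured, with a median difference of -0.38, 6 at an unadjusted p under 0.05 and 0 passing the adjusted threshold in limma, and the median was -0.21 without WT replicate 3. Relative to each gene's mean over the 6 pools, their median was -0.21, -0.12 and -0.21 in Lxn-/- replicates 1, 2 and 3, against 0.24, -0.014 and 0.35 in WT replicates 1, 2 and 3. The 6 B cell markers at an unadjusted p under 0.05 in limma were Cd79a, Cd79b, Ms4a1, Pou2af1, Ighm and Cd74. Ebf1, Pax5, Vpreb1, Igll1 and Blk were not among them. Markers of T cells were higher in Lxn-/- for 4 of 6 measured, with a median difference of 0.029. The part of B cells or T cells in the Lig4 values was not tested.

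Because Lig4 was the gene with the lowest p, its start region is shown. RefSeq lists 2 start windows for it on GRCm38.p6, and the one given here is chr8:9976262-9976561 on the minus strand, from 250 bases before to 50 after the start. Capitals mark matches on either strand to the core motif of the transcription factor NRF1 (GCGCA, any base, then GCGC). CCAAT was found on neither strand.
Lig4: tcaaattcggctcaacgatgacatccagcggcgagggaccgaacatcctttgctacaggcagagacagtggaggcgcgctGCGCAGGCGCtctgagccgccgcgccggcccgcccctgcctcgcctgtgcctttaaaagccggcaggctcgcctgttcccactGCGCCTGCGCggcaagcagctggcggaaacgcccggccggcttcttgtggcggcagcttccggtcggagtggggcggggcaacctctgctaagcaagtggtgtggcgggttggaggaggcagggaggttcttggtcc
This window held 2 matches to the NRF1 core and the other held 1. Such a match occurred in 5.19% of the 27025 genes with a start window and in 3 of 25 matched repair genes (12%), which were Lig4, Atm and Ercc2.

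Prkdc, the catalytic kinase that bridges broken ends, was 9.83, 9.85 and 9.57 in the Lxn-/- pools, against 9.67, 9.62 and 9.56 in the WT pools. Lxn-/- replicates 1 and 2 were above all WT pools, and Lxn-/- replicate 3 lay among them. The difference was 0.14 (SE 0.089, unadjusted p = 0.166 and adjusted p = 0.993 in limma), and without Lxn-/- replicate 3 it was 0.22 with an unadjusted p of 0.0184. Xrcc4, the scaffold that Lig4 binds, differed by 0.095 (SE 0.085), the opposite sign to its ligase. The Ku subunits that first clamp the ends, Xrcc6 and Xrcc5, differed by 0.045 (SE 0.072) and -0.032 (SE 0.074). The median of the 5 end joining genes was 0.045, with 3 higher and 2 lower. Of 7 further end joining genes, 6 were measured, with 2 higher, 4 lower and 0 at an unadjusted p under 0.05. Polm, a polymerase that fills gaps at ends, differed by -0.13 (SE 0.085) and Aplf, an end joining scaffold, by -0.15 (SE 0.099).

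**Figure D2:**
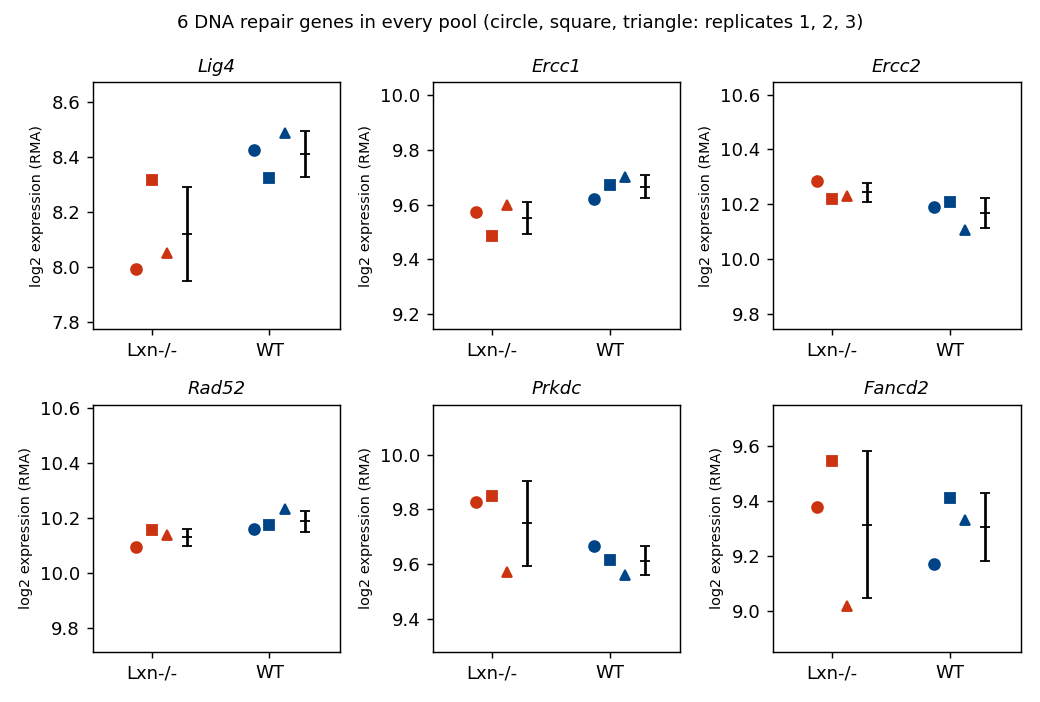
Log2 expression on the y axis of 6 repair genes in each of the 3 Lxn-/- and 3 WT pools, with the mean and SD beside the points, on axes of equal span. The genotypes do not overlap for Lig4, Ercc1, Ercc2 and Rad52, and Fancd2 spans 9.02 to 9.54 within Lxn-/- alone.

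Genes of homologous recombination were lower in Lxn-/- for 4 of 5, with a median of -0.059 and no gene at an unadjusted p under 0.05. Brca1, a ubiquitin ligase that promotes resection of the ends, had 9.33, 9.38 and 9.03 in the Lxn-/- pools, against 9.37, 9.31 and 9.37 in the WT pools. The genotypes overlapped, and the low value was that of Lxn-/- replicate 3. Its difference of -0.11 (SE 0.097, unadjusted p = 0.309 in limma) was 0.00063 without that pool. Rad52, which anneals single strands, had 10.09, 10.15 and 10.14 in the Lxn-/- pools, against 10.16, 10.17 and 10.23 in the WT pools. All 3 Lxn-/- values were lower, but the gap between the groups was far smaller than the spread within either, and the difference was -0.059 (SE 0.062, unadjusted p = 0.373).

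The remaining recombination genes overlapped between genotypes. Brca2, which loads the recombinase onto single strands, differed by 0.050 (SE 0.11), and Rad54l, a motor protein of strand invasion, by -0.046 (SE 0.088). Xrcc3, a relative of the recombinase, had the widest spread of the 30 genes, with 9.10, 9.78 and 9.60 in the Lxn-/- pools, against 9.29, 9.62 and 10.00 in the WT pools. Its difference of -0.14 (SE 0.21) was smaller than the spread within either genotype. Of 18 further recombination genes, 16 were measured, with a median of -0.020, 7 higher, 9 lower and 0 at an unadjusted p under 0.05. The recombinase relatives Rad51b and Rad51c differed by 0.23 (SE 0.10) and -0.11 (SE 0.082).

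In the complex that senses broken ends, Mre11a and Rad50 varied less between pools than Nbn, with ranges of 0.081 and 0.16 against 0.27 and a median range of 0.26 over the 30 genes. Mre11a, its nuclease, had 10.44, 10.47 and 10.41 in the Lxn-/- pools, against 10.39, 10.42 and 10.41 in the WT pools, the narrowest range of the 30 genes at 0.081. Nbn, which links the complex to the kinase Atm, had 9.82, 9.85 and 9.60 in the Lxn-/- pools, against 9.73, 9.83 and 9.87 in the WT pools, and differed by -0.056 (SE 0.087). Both genes overlapped between genotypes, and the low Nbn value was again that of Lxn-/- replicate 3. Nbn was also the only repair gene with a second probe set, which differed by -0.0030 (SE 0.11) and was not low in that pool, at 8.35. Rad50, the ATPase of the complex, differed by 0.022 (SE 0.069).

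The kinases that pass on the damage signal did not move one way. Atm, activated by broken ends, had 10.44, 10.36 and 10.23 in the Lxn-/- pools, against 10.30, 10.35 and 10.12 in the WT pools, a difference of 0.087 (SE 0.089). Atr, activated by single-stranded DNA, differed by 0.063 (SE 0.085). Their targets had the other sign. Chek2, the kinase downstream of Atm, had 9.19, 9.26 and 9.31 in the Lxn-/- pools, against 9.15, 9.27 and 9.64 in the WT pools, with WT replicate 3 alone standing high. Its difference of -0.10 (SE 0.12) was 0.039 without WT replicate 3. Chek1, downstream of Atr, differed by -0.055 (SE 0.11) and was likewise highest in WT replicate 3, where without that pool the difference was 0.056. Of 15 further genes of damage signalling, 14 were measured, with a median of -0.053, 5 higher, 9 lower and 0 at an unadjusted p under 0.05. Wee1, a kinase that holds back mitosis, differed by -0.12 (SE 0.072) and Rad9a, part of a checkpoint clamp, by -0.13 (SE 0.095).

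The Fanconi genes were nearly level between genotypes on average, with a median difference of 0.013, but varied between pools. The ranges over all pools were 0.53 for Fancd2 and 0.41 for Fanca, among the 6 widest of the 30 genes. Fancd2 and Fanci, the paired proteins that clamp onto DNA at a crosslink, differed by 0.0088 (SE 0.13) and 0.034 (SE 0.083). Fanca and Fancc, subunits of the core complex that modifies that pair, differed by -0.0021 (SE 0.11) and 0.017 (SE 0.066). Fancd2 had 9.38, 9.54 and 9.02 in the Lxn-/- pools, against 9.17, 9.41 and 9.33 in the WT pools. The Lxn-/- pools enclosed all WT pools. Fanci had 9.40, 9.45 and 9.20 in the Lxn-/- pools, against 9.26, 9.33 and 9.36 in the WT pools, with the same Lxn-/- pools at the extremes. Fancc had 8.31, 8.35 and 8.22 in the Lxn-/- pools, against 8.31, 8.27 and 8.25 in the WT pools.

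All 4 Fanconi genes were lowest in Lxn-/- replicate 3 and highest in Lxn-/- replicate 2. Without Lxn-/- replicate 3 their median difference was 0.11, and without Lxn-/- replicate 2 it was -0.053. Of 15 further Fanconi genes, all 15 were measured, with a median of -0.019, 6 higher, 9 lower and 0 at an unadjusted p under 0.05. Faap20 and Faap24, which are associated proteins of the core complex, differed by -0.12 (SE 0.064) and -0.11 (SE 0.091).

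The variation between pools reached beyond the Fanconi genes. Of the 30 repair genes, 12 (40%) had their lowest value in Lxn-/- replicate 3, against 17.1% of all genes. They were the 4 Fanconi genes, 3 of 5 recombination genes (Brca1, Brca2 and Rad54l), Nbn, Chek1, Msh6, Xrcc1 and Parp1. Of the 30, 11 (36.7%) were highest in Lxn-/- replicate 2, against 11.5% of all genes, and 12 (40%) in WT replicate 3, against 25.6%. None was highest in Lxn-/- replicate 3, where 18.2% of all genes were. Relative to each gene's mean over the 6 pools, the median of the recombination genes was 0.011, 0.098 and -0.18 in Lxn-/- replicates 1, 2 and 3, against -0.00010, 0.045 and 0.072 in WT replicates 1, 2 and 3. The 5 end joining genes stood at 0.11, 0.015 and -0.034 in the Lxn-/- pools, against 0.040, -0.060 and -0.059 in the WT pools. The 6 further end joining genes were lowest in Lxn-/- replicate 3, with medians of 0.046, 0.047 and -0.11 in the Lxn-/- pools, against 0.0094, -0.0017 and 0.0068 in the WT pools.

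Genes of cell division were low and high in some of the same pools. The median of 24 mitosis genes, on the same scale, was -0.087, 0.098 and -0.27 in the Lxn-/- pools, against -0.081, 0.078 and 0.21 in the WT pools. The median of 19 DNA replication genes was -0.0037, 0.049 and -0.12 in the Lxn-/- pools, against -0.083, 0.047 and 0.14 in the WT pools. Both lists were lowest in Lxn-/- replicate 3, as were the Fanconi genes, but both were highest in WT replicate 3, where the median of the Fanconi genes was -0.0058. Erythroid markers stood at -0.22, 0.28 and -0.38 in the Lxn-/- pools, against -0.15, 0.057 and 0.48 in the WT pools. The median of the neutrophil markers ran the other way, at 0.28, -0.72 and 1.18 in the Lxn-/- pools, against 0.85, 0.049 and -1.38 in the WT pools. Not all of these markers did so. Elane and Mpo were lowest in Lxn-/- replicate 3, and Prtn3 and Ctsg were lower there than in the other Lxn-/- pools. The rest of the list was highest in Lxn-/- replicate 3. By genotype, mitosis genes were lower in Lxn-/- for 24 of 24 (median -0.16) and replication genes for 15 of 19 (median -0.066). Erythroid markers were lower for 9 of 9 (median -0.29), and neutrophil markers were higher for 10 of 12 (median 0.47). In limma 0 of these genes passed the adjusted threshold, and 1, an erythroid marker, had an unadjusted p under 0.05. The part of erythroid cells, of neutrophils and of cell division in the values of the repair genes was not tested.

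**Figure D3:**
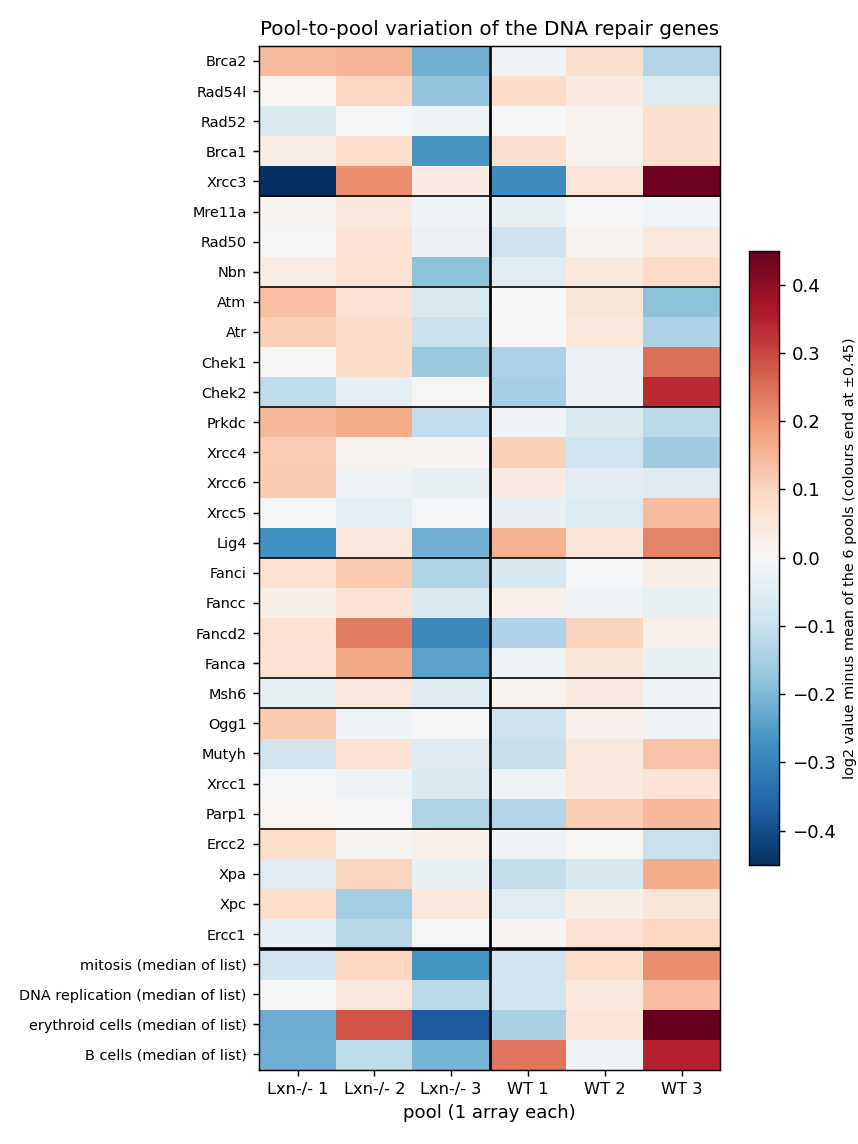
Log2 value minus the mean of the 6 pools for the 30 repair genes, with pathways divided by lines, and for the median of 4 lists of other genes below the thick line, with the 3 Lxn-/- pools left of the 3 WT pools. The 4 Fanconi genes are highest in Lxn-/- replicate 2 and lowest in Lxn-/- replicate 3, and the mitosis list is lowest in Lxn-/- replicate 3 and highest in WT replicate 3.

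Without Lxn-/- replicate 3, the genotypes did not overlap for 12 of the 30 genes (40%), against 22.2% of all genes. Of these 12, 9 were higher in the other Lxn-/- pools, against 8.06% of all genes, and 3 were lower, against 14.2%. The 9 were Brca2, Mre11a, Atm, Atr, Prkdc, Fanca, Fancc, Fanci and Ercc2. The low values of Lxn-/- replicate 3 were described above, so these counts are not a separate result. Without WT replicate 1 the count in either direction was 8, against 23% of all genes. Without each of the other pools it was 4 or 5, against 14.9% to 19.9%. Lig4, Ercc1, Rad52 and Ercc2 were among those without overlap in each case, as must hold once they do not overlap in the full set. The start regions of Brca1 and Fanca are shown as examples of genes that shared the low value in Lxn-/- replicate 3. They are chr11:101551906-101552205 and chr8:123318527-123318826, both on the minus strand of GRCm38.p6 and taken from RefSeq, with CCAAT, the box bound by the factor NF-Y, in capitals wherever it was found on either strand.
Brca1: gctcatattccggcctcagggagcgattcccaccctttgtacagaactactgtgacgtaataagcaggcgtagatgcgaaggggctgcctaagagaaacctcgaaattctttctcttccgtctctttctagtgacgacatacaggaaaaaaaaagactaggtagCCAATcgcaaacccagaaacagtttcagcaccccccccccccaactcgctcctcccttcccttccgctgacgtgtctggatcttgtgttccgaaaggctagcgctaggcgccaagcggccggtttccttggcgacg
Fanca: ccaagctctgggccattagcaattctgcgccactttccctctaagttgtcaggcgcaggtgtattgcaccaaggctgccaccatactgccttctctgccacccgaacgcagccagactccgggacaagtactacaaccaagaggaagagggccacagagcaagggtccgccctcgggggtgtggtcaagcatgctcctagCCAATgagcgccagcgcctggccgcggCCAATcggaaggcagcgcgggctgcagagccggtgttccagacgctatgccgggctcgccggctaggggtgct
The Brca1 window held 1 such box and the Fanca window 2. Of the other genes lowest in Lxn-/- replicate 3 that had a window, Fancc, Rad54l, Msh6 and Xrcc1 held the box. Brca2, Chek1, Fanci and Parp1 did not. A CCAAT box on either strand occurred in 16 of the 25 repair genes with a window (64%), in 41.1% of all 27025 genes and in 29 of 36 mitosis and replication genes (80.6%). The letters TTTGAA, the core of the CHR element of mitotic genes, occurred in 0 of the 25 repair genes, in 20.2% of all genes and in 17 of 36 mitosis and replication genes (47.2%). TTTGGCGC or TTTCGCGC, exact forms of the site of the E2F factors, occurred in 0 of 25 repair genes and in 0.929% of all genes. They occurred in 8 of 36 mitosis and replication genes (22.2%). Other forms of the site were not searched, so the 0 does not show that the repair genes lack E2F sites. These letters describe the windows only.

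Mismatch repair was represented by Msh6, a subunit of the complex that recognises mispaired bases. It had 9.67, 9.75 and 9.64 in the Lxn-/- pools, against 9.72, 9.74 and 9.68 in the WT pools. The genotypes overlapped and the difference was -0.028 (SE 0.064). Of 7 further mismatch repair genes, 5 were measured, and 5 had a positive difference, from 0.00011 to 0.15, with a median of 0.044 and 0 at an unadjusted p under 0.05. With each array shifted to a common median, 2 of the 5 were higher. Msh3, another recognition subunit, differed by 0.15 (SE 0.095) and Pms1, of the complex that acts after recognition, by 0.11 (SE 0.090).

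Base excision and single-strand break repair genes were lower in Lxn-/- for 3 of 4, with a median of -0.056. Xrcc1, the scaffold for sealing nicks, had 9.62, 9.61 and 9.57 in the Lxn-/- pools, against 9.61, 9.68 and 9.69 in the WT pools, a difference of -0.063 (SE 0.062, unadjusted p = 0.340 in limma). Parp1, which senses nicks and marks them with chains of ADP-ribose, had 11.06, 11.05 and 10.91 in the Lxn-/- pools, against 10.92, 11.16 and 11.19 in the WT pools, a difference of -0.083 (SE 0.092). In both genes WT replicate 1 lay within the Lxn-/- values and the other WT pools lay above them. Ogg1, the glycosylase for oxidised guanine, differed by 0.059 (SE 0.071), and Mutyh, which removes adenine paired with it, by -0.049 (SE 0.083). Of 20 further genes of these routes, 18 were measured, with 9 higher, 9 lower, a median of -0.00010 and 0 at an unadjusted p under 0.05. Aptx, which cleans blocked ends at nicks, differed by 0.17 (SE 0.076), and Neil2, a glycosylase, by 0.12 (SE 0.060), with no overlap between genotypes in either. Neil2 lay below the dim scale, at 6.70 in Lxn-/- and 6.58 in WT.

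Nucleotide excision repair held 2 of the 4 genes without overlap, and they had opposite signs. Ercc1, a subunit of the nuclease that cuts on the 5′ side of a lesion, had 9.57, 9.48 and 9.60 in the Lxn-/- pools, against 9.62, 9.67 and 9.70 in the WT pools. All Lxn-/- values were lower, by at least the small step between Lxn-/- replicate 3 and WT replicate 1. The difference was -0.11 (SE 0.066, unadjusted p = 0.123 and adjusted p = 0.993 in limma), and it ran from -0.14 to -0.080 with single pools left out. Ercc2, a helicase of the transcription factor complex that opens DNA around the lesion, had 10.28, 10.22 and 10.23 in the Lxn-/- pools, against 10.19, 10.21 and 10.11 in the WT pools. All Lxn-/- values were higher, and the difference was 0.076 (SE 0.065, unadjusted p = 0.277 and adjusted p = 0.993). With each array shifted to a common median the differences were -0.16 for Ercc1 and 0.030 for Ercc2, and Lig4 was then the only repair gene without overlap.

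Ercc1 and Ercc2 lie near each other on chromosome 7, with 2 genes between them in the RefSeq order of assembly GRCm38.p6. Those genes, Cd3eap and Ppp1r13l, differed by -0.16 (SE 0.084) and -0.098 (SE 0.11). The span of Cd3eap overlaps that of Ercc1 in this annotation, and the sources used here do not say which exons the probes cover. The start regions of the pair are shown because the 2 genes differed in sign, at chr7:19344821-19345120 and chr7:19381767-19382066 on the plus strand, with the same motifs in capitals.
Ercc1: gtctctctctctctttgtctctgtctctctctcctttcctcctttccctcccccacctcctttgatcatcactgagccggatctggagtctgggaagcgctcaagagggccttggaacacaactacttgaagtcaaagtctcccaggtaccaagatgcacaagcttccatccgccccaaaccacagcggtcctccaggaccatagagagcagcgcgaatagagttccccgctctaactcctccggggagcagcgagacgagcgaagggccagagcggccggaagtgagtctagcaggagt
Ercc2: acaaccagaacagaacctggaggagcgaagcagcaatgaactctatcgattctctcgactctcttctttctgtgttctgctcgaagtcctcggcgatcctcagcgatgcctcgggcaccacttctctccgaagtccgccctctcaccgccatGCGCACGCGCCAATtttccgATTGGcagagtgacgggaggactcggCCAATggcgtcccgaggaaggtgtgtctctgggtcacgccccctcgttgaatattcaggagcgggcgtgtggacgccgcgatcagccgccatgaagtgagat
The Ercc1 window held neither motif. The Ercc2 window held 1 match to the NRF1 core, which shares its last base with the first of 3 CCAAT boxes.

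The other nucleotide excision genes overlapped between genotypes. Xpa, which verifies the lesion, differed by 0.0085 (SE 0.091) and Xpc, which detects it, by -0.020 (SE 0.083). The median of the 4 genes was -0.0060, and that of all 8 excision repair genes was -0.035. Of 17 further genes, 15 were measured, with 7 higher, 8 lower, a median of -0.00089 and 0 at an unadjusted p under 0.05. Uvssa, of the branch that clears stalled transcription, differed by 0.10 (SE 0.062) and Ddb2, a damage sensor in chromatin, by 0.12 (SE 0.098).

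Set side by side, the pathway medians lay between -0.059 for homologous recombination and 0.045 for end joining, with 0.013 for the Fanconi pathway, -0.028 for the single mismatch repair gene and -0.035 for excision repair. Each pathway's genes fell on both sides of 0 except the mismatch repair gene. Each of these medians was smaller in size than the SE of a typical single repair gene, whose median was 0.085. That SE is the error of 1 gene and not of a median. The pool medians of the recombination genes had an SD of 0.14 in Lxn-/- and 0.037 in WT, and those of the end joining genes 0.076 and 0.058. A common median lowered the difference of every gene on the array by the same amount. The recombination genes then stood at -0.10, above the single-gene SE in size, and the end joining genes at -0.00018. All Fanconi and break sensing genes were then lower, under a shift shared by all genes and not particular to these pathways. Of the 30 genes, 29 lay within the 5th to 95th percentile of the differences of all genes, -0.18 to 0.16, and Lig4 lay outside. Of the 99 measured genes of the wider lists, 48 were higher and 51 lower, with a median of -0.00089, and 5 lay outside those percentiles. Genotypes did not overlap for 5 of the 99, against 8.79% of all genes. Lesion bypass genes, which copy past damage, had a median of 0.013 over 7 genes, with 4 higher and 3 lower. Polh and Rev1, both bypass polymerases, differed by -0.11 (SE 0.093) and 0.10 (SE 0.092). The 3 genes of direct reversal, which remove alkyl groups from bases, had positive differences with a median of 0.085 (2 of 3 with a common median), and Mgmt and Alkbh3 differed by 0.12 (SE 0.073) and 0.085 (SE 0.065). None of the 99 had an unadjusted p under 0.05 in limma, where the lowest was 0.0542 for Aptx.

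**Figure D4:**
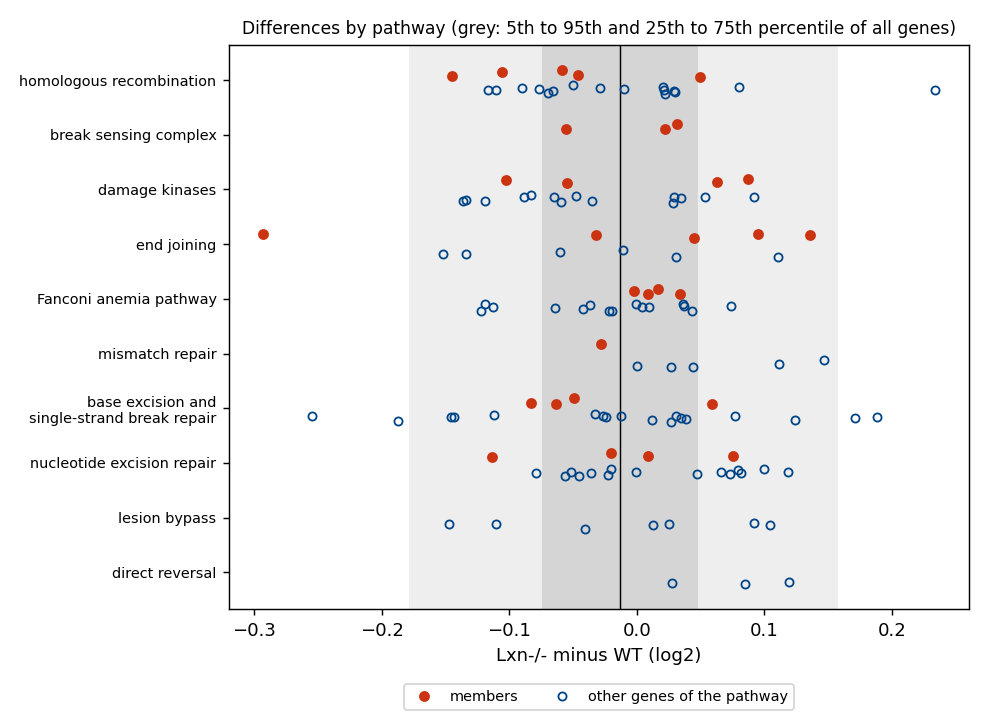
Difference on the log2 scale, Lxn-/- minus WT on the x axis, for the 30 repair genes (filled) and 99 other genes of the same and related pathways (open), with grey bands for the 25th to 75th and the 5th to 95th percentile of all 19938 genes and a line at their median. Lig4, at -0.29, is the only filled point outside the wider band.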

How the data were processed

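The deposited table holds log2 values that the authors normalized by RMA, per the series' design text, in Partek 6.0, per the submitters' processing notes. The sources used here do not state the background step, summary level or probe set definitions. Of 35557 probe sets, 21789 had 1 symbol in GEO's platform annotation and 1621 had several. Symbols were checked through Entrez identifiers against RefSeq (GRCm38.p6), and 0 needed a change.

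Genotypes were compared over all 23410 probe sets with a symbol, using limma 3.58.1 in R 4.3.3 (lmFit and eBayes, no covariates, two-sided, Benjamini-Hochberg, threshold 0.05). The design text also names limma. Errors are limma's moderated standard errors. Single genes were also compared by an exact permutation test. Each gene was represented by its brightest probe set, and 0 repair probe sets shared their values with another. The fit was tested on simulated data. The number of arrays limits the precision, and array signals give no read depth.

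Genes were assigned to 8 classes and compared with 109 further repair genes in 9 lists. Values in every pool are given for genes without overlap and the 2 of lowest unadjusted p in each class (1 in mismatch repair). From each wider list the 2 genes of lowest unadjusted p are named. Pool values of Fancd2 and Xrcc3, Fanca's and Brca1's start regions and the genes beside Ercc1 were chosen after values were seen. Members and lists were chosen with earlier results of these data known. Start regions are RefSeq windows for 25 of the 31 genes.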

Additional observations from a re-analysis of the deposited data

How the results depend on the processing

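No repair gene passed the test under any of 13 other settings, 6 of them leaving out 1 pool each, and no probe set did in the 12 that were fitted per probe set. Lig4 ran from -0.39 to -0.23 over them. With the replicate block, 0 probe sets and 0 repair genes were called, and Lig4 had an unadjusted p of 0.0309. The labels share numbers 1 to 3 between genotypes, but deviations of same-numbered pools from their genotype means correlated at 0.37, -0.072 and -0.081, so the numbers were not taken as pairs. Of 30 repair genes, 12 kept their sign in all 13 settings and 18 did not. Of the 12, 9 moved by over 1.5 times with 1 pool left out, Atm from 0.016 to 0.14, Atr from 0.0077 to 0.13 and Parp1 from -0.17 to -0.032 among them. The 18 genes named from the wider lists kept their sign. They were picked for the lowest unadjusted p in each list, which favours a stable sign, so this is no comparison with the 30. Of the 18, 13 moved by over 1.5 times, Rad51b from 0.17 to 0.35, Rad51c from -0.16 to -0.037 and Pms1 from 0.031 to 0.17 among them. Rad9a moved from -0.21 to -0.050 and Ddb2 from 0.051 to 0.23. Rad51b was 0.11 at the lowest over the other settings.

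With single pools left out, the pathway medians ran from -0.11 to 0.00063 for recombination, -0.0029 to 0.076 for end joining, -0.053 to 0.11 for the Fanconi genes, -0.020 to 0.041 for break sensing, -0.035 to 0.071 for the damage kinases, -0.058 to -0.0066 for mismatch repair, -0.10 to -0.014 for base excision, -0.048 to 0.023 for nucleotide excision and -0.070 to 0.0023 for excision repair as a whole. Differences that changed sign then ran from -0.17 to 0.00063 for Brca1, -0.014 to 0.17 for Brca2, -0.11 to 0.031 for Rad54l, -0.32 to 0.051 for Xrcc3, -0.10 to 0.023 for Nbn, -0.020 to 0.051 for Rad50, -0.14 to 0.056 for Chek1, -0.20 to 0.039 for Chek2, -0.070 to 0.030 for Xrcc5, -0.0029 to 0.076 for Xrcc6, -0.089 to 0.12 for Fanca, -0.012 to 0.054 for Fancc, -0.11 to 0.16 for Fancd2, -0.017 to 0.11 for Fanci, -0.11 to 0.0029 for Mutyh, -0.042 to 0.093 for Xpa and -0.065 to 0.053 for Xpc.

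A common median changed the sign of Mre11a (-0.014), Rad50 (-0.023), Xrcc6 (-0.00018), Fancc (-0.028), Fancd2 (-0.036), Fanci (-0.011) and Xpa (-0.037), and moved Msh6 to -0.073. That setting lowers the difference of every gene by the same amount. The sign changes under it are therefore those of genes with small positive differences and are not particular to these genes. Quantile normalization changed that of Fancc (-0.040), Fancd2 (-0.016) and Xpa (-0.00059), and array weights that of Xrcc5 (0.0088) and Fancd2 (-0.014). The cause of the sign changes under quantile normalization and array weights was not tested.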
